A study of Mus musculus with 32 samples.

Results

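The MHC class II presentation genes examined here are 10 of the 22850 genes in the expression table, chosen by symbol: the chain genes H2-Aa, H2-Ab1 and H2-Eb1, the invariant chain gene Cd74, the peptide-loading genes H2-DMa, H2-DMb1 and H2-Oa, the transactivator gene Ciita, and Cd86 and Cd83, which are carried by mature antigen-presenting cells. Their RNA-sequencing values were available in 32 samples of 3 cell types sorted from mouse islets, namely β cells, vascular endothelial cells (ECs) and islet macrophages (MΦs). Each value is a normalized score, scaled for library size and composition by the TMM (trimmed mean of M-values) method and given in whole numbers that never fall below 1. Differences are given as log2 fold changes of score + 1.

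All mice carried the MIP-GFP, RIP-rtTA and TetO-VEGF-A transgenes on a C57BL/6 background, the untreated mice included. In these mice GFP marks β cells, and rtTA, expressed from a rat insulin promoter, turns on human VEGF-A in β cells when doxycycline (Dox) is given. The No Dox mice received no drug, the 1wk Dox mice received it for 1 week, and the 1wk WD mice were studied 1 week after it was withdrawn. β cells were sorted as GFP+ cells negative for CD31 and CD11b, and both ECs and MΦs by surface antigen, as CD31+ and CD11b+ cells respectively, from islets pooled over several mice. The CD11b+ gate takes in other myeloid cells as well as MΦs. β cells had 4 No Dox, 5 1wk Dox and 3 1wk WD samples, ECs had 4, 1 and 5 in this order, and MΦs had 4, 2 and 4. The labels number the samples of a group but give no age and do not tie them to particular mice, so p-values measure the spread between these samples.

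Class II molecules are pairs of α and β chains that show peptides from the endocytic pathway to CD4+ T cells. The invariant chain, Cd74, holds new chains together and blocks their groove until endosomal proteases trim it, H2-DM then exchanges the remaining fragment for other peptides, and H2-O restrains H2-DM. Transcription of the chain genes needs Ciita, which binds to factors already sitting on the X and Y boxes of their promoters. Class II expression is high in dendritic cells, MΦs and B cells and low in most other cells.

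Of the 10 genes, 6 lie together on chromosome 17 of mm9, the build of the table: H2-Oa (chr17:34229285-34232179, plus strand), H2-DMa (chr17:34272127-34276046, plus strand), H2-DMb1 (chr17:34290017-34297168, plus strand), H2-Ab1 (chr17:34400154-34406363, plus strand), H2-Aa (chr17:34406276-34424772, minus strand) and H2-Eb1 (chr17:34442828-34453144, plus strand). The models of H2-Aa and H2-Ab1 overlap by 88 bases on opposite strands, and strand-aware counting is not stated, so reads in the overlap cannot be assigned to either. H2-DMb1 has a near-identical neighbour, H2-DMb2, so that the division of reads between them is uncertain. Ciita (chr16:10480237-10527657) and Cd86 (chr16:36603955-36666167) lie on chromosome 16 and Cd83 (chr13:43880476-43898499) on chromosome 13.

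RefSeq promoter entries matched 5 of the 10 genes, H2-Aa, H2-Eb1, H2-DMa, H2-DMb1 and H2-Oa, and H2-Ab1, Cd74, Ciita, Cd86 and Cd83 had none. The 4 printed here show where set letters of the boxes through which class II genes are switched on together occur in genes of different levels. Each is the 150 bases before the start of transcription, read 5′ to 3′ on the strand of the gene in GRCm38.p6, a later build than that of the table. They cover chr17:34287824-34287973 on the minus strand for H2-Aa and, on the plus strand, chr17:34305717-34305866 for H2-Eb1, chr17:34153041-34153190 for H2-DMb1 and chr17:34092229-34092378 for H2-Oa. Capitals mark matches to an X box core (AG, any 2 bases, AC, any base, then GATG), to a Y box (TGATTGG) or to a cyclic AMP response element (TGACGTCA). The motif letters were chosen with these promoters in view.
H2-Aa: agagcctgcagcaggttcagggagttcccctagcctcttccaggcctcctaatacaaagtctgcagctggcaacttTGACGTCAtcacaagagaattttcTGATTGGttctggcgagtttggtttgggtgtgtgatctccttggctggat
H2-Eb1: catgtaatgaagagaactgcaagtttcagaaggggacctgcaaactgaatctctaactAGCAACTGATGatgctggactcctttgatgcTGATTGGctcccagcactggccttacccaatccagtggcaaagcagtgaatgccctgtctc
H2-DMb1: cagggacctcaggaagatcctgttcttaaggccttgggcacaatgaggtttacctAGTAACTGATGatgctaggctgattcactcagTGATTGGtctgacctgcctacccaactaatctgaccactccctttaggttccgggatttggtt
H2-Oa: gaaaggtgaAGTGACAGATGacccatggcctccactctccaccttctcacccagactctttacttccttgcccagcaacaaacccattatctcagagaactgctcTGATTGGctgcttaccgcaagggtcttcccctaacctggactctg

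The Y box stood 50, 61, 63 and 45 bases before the start in H2-Aa, H2-Eb1, H2-DMb1 and H2-Oa. The match to the X box core letters began 31 bases before the Y box in H2-Eb1, 32 bases before it in H2-DMb1 and 96 bases before it in H2-Oa. H2-Aa had no match to the X box core letters, and its response element began 24 bases before the Y box. An X box of other letters would not be marked. The matches therefore neither place the X box of H2-Oa nor show that H2-Aa lacks one. Neither start of H2-DMa held any of the 3 motifs in this window. Searched on both strands in 32851 mouse promoters of 300 bases (250 before and 50 after the start), the Y box was found in 7.82%, the X box core in 0.968% and the response element in 1.79%, and an X box core followed by a Y box whose first bases were at most 40 bases apart was found in 4 promoters, those of H2-DMb1, H2-Eb1, H2-Eb2 and Hnrnpa1. A match describes letters only and no binding was measured here.

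Several libraries stood apart. In the No Dox β cells, replicates 1 and 2 had the lowest scores of the 12 β cell libraries for each class II gene but H2-DMa and H2-Oa, and the main contrasts with No Dox β cells are also given without both, an alternative chosen after seeing the data. As the choice followed the scores of these genes, leaving both out raises their No Dox level. Unadjusted p and calls without both are therefore descriptions and not tests. The library numbers in the header of the table form 2 runs, of 28 and 4 samples, and the later one holds both 1wk Dox MΦ samples, the 1wk Dox EC sample and 1wk WD β cell replicate 3. What the numbers stand for is not stated. In MΦs and ECs the 1wk Dox treatment and the run cannot be told apart. Exocrine transcripts varied widely: the summed score of 8 acinar genes at No Dox ran from 31279 to 12454343 in β cells, from 63312 to 1727301 in ECs and from 23562 to 11598296 in MΦs. At 1wk WD it reached 581792, 62311 and 207289, and at 1wk Dox 20554, 205 and 3340. The sorts were checked against defining genes. The summed score of 13 macrophage genes was 303729 to 583519 in MΦs against 3930 to 6527 in ECs and 620 to 9441 in β cells, and that of 10 endothelial genes was 421682 to 676408 in ECs against 1858 to 4408 in MΦs and 1569 to 59018 in β cells. The summed score of 10 β cell genes was 513966 to 10941261 in β cells against at most 47759 in the other cells. The MΦ libraries also held 10 dendritic cell genes at a summed score of 44193 to 62466, and 8 B cell genes, 7 neutrophil genes and 7 monocyte genes at 655 to 1311, 7165 to 12661 and 35195 to 47803.

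MΦs held by far the most class II RNA, and 10 of 10 genes were higher in MΦs than in ECs and than in β cells at No Dox. Cd74 had scores of 807364, 929279, 577723 and 1012437 in the 4 No Dox MΦ samples, 652, 652, 683 and 876 in ECs, and 1104, 609, 19706 and 34650 in β cells. No MΦ value was reached by either of the other cell types, and among the β cells replicates 1 and 2 were at the level of ECs whereas replicates 3 and 4 were not. Per kilobase of exon, which allows genes to be compared, the No Dox MΦ means were 589859 for Cd74, 149908 for H2-Ab1, 105475 for H2-Aa and 71812 for H2-Eb1, followed by Cd83 at 27775 and Cd86 at 26740, and then by H2-DMa at 6184, H2-DMb1 at 4751, Ciita at 3397 and H2-Oa at 1254. Neighbours in this order whose sample ranges overlapped were H2-Aa and H2-Eb1, Cd83 and Cd86, H2-DMa and H2-DMb1, and H2-DMb1 and Ciita, and the other neighbours did not overlap. The SD per kilobase was 3951 for Cd83 and 5756 for Cd86 (n = 4). The order put the structural chains first and the H2-O subunit last.

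**Figure D1:**
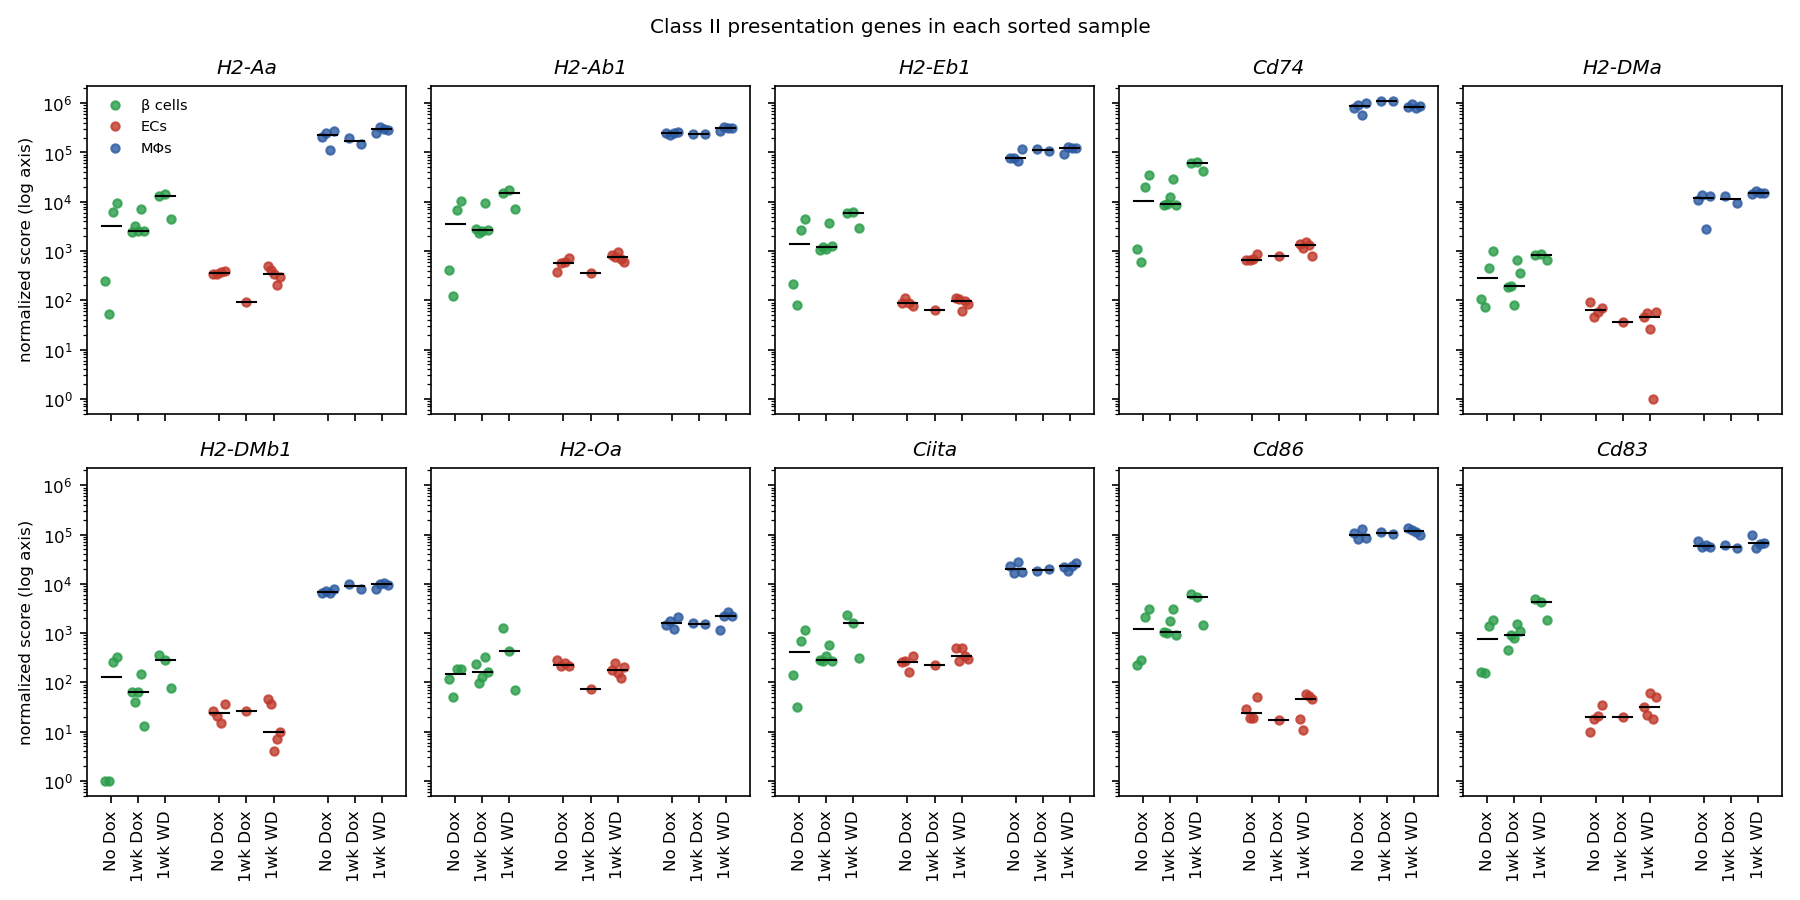
Scores of the 10 MHC class II presentation genes in every sample. Each panel is a gene, the y axis is the normalized score on a log10 scale, points are samples grouped on the x axis by cell type and time point, and black bars mark group medians. MΦs had the highest medians in each panel; ECs were lowest for Cd86 and Cd83; and the No Dox β cells were split for most genes, such as Cd74 and H2-Aa, less so for H2-Oa.

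The difference between MΦs and ECs at No Dox was smallest for H2-Oa and largest for the co-stimulatory genes. H2-Oa had scores of 1451, 1752, 1226 and 2162 in MΦs and of 279, 211, 243 and 216 in ECs, a log2 fold change of 2.77 (SE 0.38, limma adjusted p = 9.55e-05). Cd86, the ligand of CD28 on T cells, had scores of 107382, 80371, 128290 and 86876 in MΦs but only 29, 19, 19 and 51 in ECs, a log2 fold change of 11.78 (SE 0.75, adjusted p = 1.64e-07). Cd83 was higher by 11.59 (SE 0.75), Cd74 by 10.16 (SE 1.06) and Ciita by 6.37 (SE 0.86). In this comparison a gene was called at a 2-fold change and an adjusted p under 0.05, and 17.6 percent of all genes tested were called higher in MΦs. At 1wk WD 10 of 10 were again called higher in MΦs than in ECs, where 20.8 percent of all genes were, with log2 fold changes of 3.51 (H2-Oa) to 11.82 (Cd86). Bulk values do not tell fewer cells of a type from less RNA per cell.

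Against β cells the MΦ scores were higher by 3.75 (H2-Oa, SE 0.38) to 8.18 (H2-DMb1, SE 1.52) on the log2 scale at No Dox, with 10 of 10 genes called where 19.7 percent of all genes were called higher. Without β cell replicates 1 and 2 it was 3.12 (H2-Oa) to 5.29 (Cd86), with 4.59 for H2-DMb1, and again 10 were called. The median log2 fold change of all genes in this comparison was -0.12. At 1wk WD 10 of 10 genes were called where 19.2 percent of all genes were higher, with log2 fold changes of 2.56 (H2-Oa, SE 0.70) to 5.55 (H2-DMb1, SE 0.73), and 9 of 10 genes did not overlap, where 26.1 percent of all genes were higher without overlap. The exception was H2-Oa, of which β cell replicate 1 scored 1288 and the lowest MΦ sample 1171.

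ECs held low but measurable class II RNA, and of 10 genes H2-Eb1, Cd86 and Cd83 were called lower in ECs than in β cells at No Dox, where 21.2 percent of all genes were called lower. H2-Eb1 scored 87, 114, 88 and 77 in ECs and 218, 80, 2613 and 4401 in β cells (log2 fold change -2.88, SE 1.01, adjusted p = 0.0342), so β cell replicate 2 lay within the EC range. Cd86 scored 226, 278, 2118 and 3030 in β cells, and Cd83 159, 157, 1391 and 1817, against at most 51 and 34 in ECs (-4.83, SE 0.75, and -4.65, SE 0.75). H2-Oa had the highest estimate in ECs relative to β cells, at 0.98 (SE 0.38, adjusted p = 0.0526). The count of 3 rested on single libraries: it was 5 without β cell replicate 1, 7 without replicate 2 and 9 without both. Without both, 37.8 percent of all genes were called in either direction, and the shares without a single replicate are not given here. The H2-Eb1 call was lost without any one of the 4 EC samples (adjusted p 0.0559 to 0.0725), without β cell replicate 3 or 4 (0.0968 and 0.0787) and with only the 2 groups fitted (0.0781), and H2-Oa was called higher in ECs without β cell replicate 3 or 4 (1.19 and 1.19) and under quantile normalization (1.59). At 1wk WD 9 of 10 genes were called lower in ECs than in β cells, where 25.2 percent of all genes were, with log2 fold changes of -1.51 (Ciita, SE 0.49, adjusted p = 0.0206) to -6.82 (Cd86, SE 0.55, adjusted p = 4.02e-07), and H2-Oa was not called (-0.95, SE 0.67, adjusted p = 0.256). The Ciita call was lost without β cell replicate 1 (-0.94, adjusted p = 0.12) or 2 (-1.20, adjusted p = 0.0979), under quantile normalization (0.0844), with the replicate block (0.0648) and with only the 2 groups fitted (0.0556), and H2-Oa was called lower without β cell replicate 3 (-2.08, adjusted p = 0.00101).

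In MΦs none of the class II genes passed the test for a change during Dox treatment. H2-Ab1, the β chain of I-A, had scores of 249225, 224262, 247381 and 264928 at No Dox and of 238817 and 238025 at 1wk Dox, a log2 fold change of -0.05 (SE 0.23, 95% interval -0.54 to 0.45, adjusted p = 0.935). Both 1wk Dox samples lay inside the No Dox range. Under quantile normalization the value was 0.78, outside this interval and of the other sign, and was not called (adjusted p = 0.41). Its partner H2-Aa had scores of 207889, 247457, 113151 and 269819 at No Dox and of 199399 and 150106 at 1wk Dox (-0.20, SE 0.33). H2-Eb1 scored 78035, 78274, 65868 and 119361 at No Dox and 115880 and 105515 at 1wk Dox (0.41, SE 0.25), and these also overlapped.

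Cd74 scored 1085004 and 1114886 at 1wk Dox, above each of the 4 No Dox values, with a log2 fold change of 0.43 (SE 0.36, adjusted p = 0.528). It was the 1 gene of the 10 whose groups did not overlap, where 30.9 percent of all genes did not. Ciita, which sets the output of the chain genes, scored 22934, 16340, 27656 and 17431 at No Dox and 17840 and 19993 at 1wk Dox (-0.13, SE 0.21). None of the 10 genes was called by limma and 0 had an unadjusted p under 0.05, where 2.26 percent of all genes were called. Their median log2 fold change was 0.03, and that of all genes was 0.03. The 95% intervals of H2-Aa, H2-Ab1, H2-Eb1, H2-DMb1, H2-Oa, Ciita, Cd86 and Cd83 lay within a 2-fold change under the TMM scaling, those of Cd74 and H2-DMa reached 1.21 and 1.43.

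At 1wk WD, 10 of 10 genes had a higher mean log2 score in MΦs than at No Dox, although none was called by limma, where 0.626 percent of all genes were. The median log2 fold change was 0.31, beside 0.00 for all genes. H2-DMb1, a chain of the peptide-exchange factor, scored 6600, 7238, 6364 and 7888 at No Dox and 7687, 9995, 10167 and 9565 at 1wk WD (0.41, SE 0.13, unadjusted p = 0.00845, limma adjusted p = 0.136). Only replicate 1 of the 1wk WD samples fell within the No Dox range. H2-Eb1 at 1wk WD scored 91148, 131960, 124151 and 123765 (0.49, SE 0.20, unadjusted p = 0.0332, limma adjusted p = 0.248), again with only replicate 1 inside the No Dox range. These 2 were the genes with an unadjusted p under 0.05.

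H2-Ab1 and H2-DMa were the 2 genes whose 1wk WD values all lay above the No Dox values, where 4.98 percent of all genes were higher without overlap. H2-Ab1 scored 268879, 333205, 312057 and 309473 at 1wk WD (0.31, SE 0.19, adjusted p = 0.416). H2-DMa scored 10925, 13576, 2790 and 13304 at No Dox and 14311, 16618, 15166 and 14893 at 1wk WD (0.82, SE 0.39, adjusted p = 0.307), and No Dox replicate 3 was far below the rest. With No Dox replicates 2 and 3 left out, an alternative chosen after seeing the data, the value of H2-DMa fell to 0.34 and that of Cd74 to -0.06. Cd86 (0.23, SE 0.19), Cd83 (0.16, SE 0.19), Ciita (0.10, SE 0.17) and Cd74 (0.09, SE 0.29) had the smallest estimates.

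Between the 1wk Dox and 1wk WD MΦs none of the 10 genes was called by limma, where 0.0866 percent of all genes were, and 1 had an unadjusted p under 0.05. H2-Aa scored 244193, 323084, 303550 and 292645 at 1wk WD, each above both 1wk Dox samples (0.74, SE 0.33, limma adjusted p = 0.492). H2-Ab1 and H2-DMa were likewise above, and Cd74, at 845272, 950485, 799756 and 870368, was below, so that 4 of 10 genes did not overlap where 30 percent of all genes did not. Only 2 samples represented 1wk Dox.

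**Figure D2:**
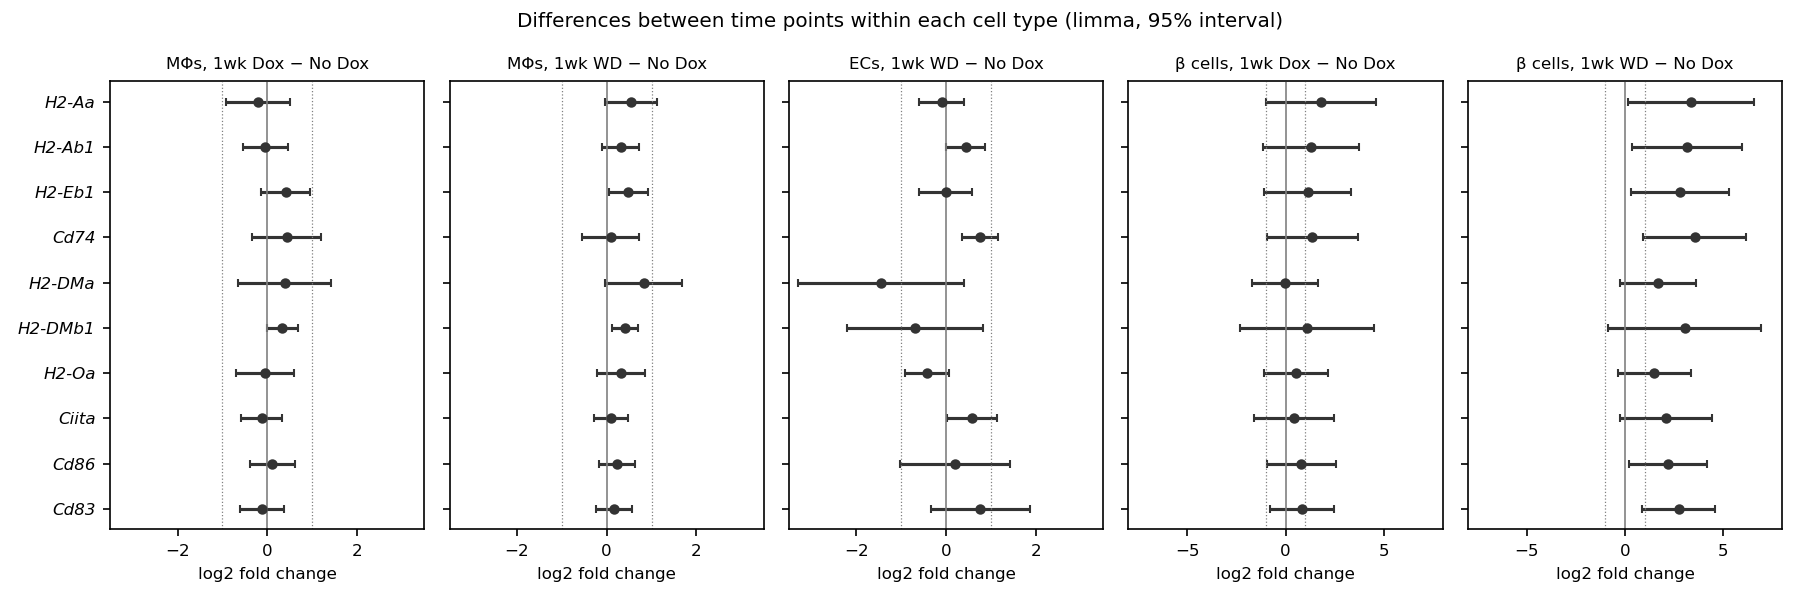
Log2 fold changes of the 10 genes against No Dox in MΦs, ECs and β cells. Points are limma estimates on log2(score + 1), horizontal lines their 95% intervals, the solid vertical line marks no change and the dotted lines a 2-fold change, and the x axis (log2 fold change) is wider for β cells. In MΦs the estimates against No Dox lay between -0.20 and 0.82; in β cells at 1wk WD they were all above 0, with intervals several units wide.

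Part of the endosomal machinery that supplies class II molecules with peptide was called higher in MΦs during Dox treatment. Of 9 endosomal processing genes, 9 had a higher mean log2 score at 1wk Dox, as 52.5 percent of all genes did, and Ctsb, Ctsd and Ctsz were called, where 2.26 percent of all genes were. Ctsb, the gene of cathepsin B, scored 21499, 22660, 21712 and 26316 at No Dox and 79830 and 60112 at 1wk Dox, a log2 fold change of 1.59 (SE 0.17, adjusted p = 0.00131). The values at 1wk WD, 36557, 45869, 38644 and 43370, lay between the other time points without overlapping them (0.83 over No Dox, adjusted p = 0.0188, less than 2-fold). Ctsd rose by 1.25 (adjusted p = 0.0108) and Ctsz by 1.04 (adjusted p = 0.0323), and Lgmn, the gene of legumain, passed the adjusted p at 0.88 without reaching 2-fold. Ctss, whose protease trims the invariant chain in professional presenting cells, scored 40454, 33906, 44831 and 53977 at No Dox and 47610 and 44224 at 1wk Dox.

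Among the ligands that act beside the class II peptide complex, 3 of the 8 tested were called higher in 1wk Dox MΦs, where 2.26 percent of all genes were called in either direction. Cd276 (B7-H3) scored 276, 315, 327 and 228 at No Dox and 1049 and 782 at 1wk Dox (1.67, adjusted p = 0.0085). Cd274 (PD-L1) scored 2141, 1589, 3054 and 1540 at No Dox and 4237 and 4728 at 1wk Dox (1.16, adjusted p = 0.0329), and Pdcd1lg2 (PD-L2) 315, 185, 463 and 202 at No Dox and 695 and 784 at 1wk Dox (1.44, adjusted p = 0.0409). The values at 1wk Dox exceeded each No Dox value for all 3, which were picked by their calls, and Cd86 and Cd80 overlapped. Of all genes, 30.9 percent did not overlap in this comparison, in either direction.

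Upstream of Ciita, Ifngr1, a chain of the interferon-γ receptor, was the 1 called gene of 9 in that arm at 1wk Dox, beside the same 2.26 percent of all genes. It scored 18229, 13231, 15547 and 16752 at No Dox and 7766 and 7978 at 1wk Dox (-1.01, SE 0.16, adjusted p = 0.00867). Ifng itself was at most 201 in MΦs. None of the 7 genes of factors that bind the X and Y boxes was called at 1wk Dox, with a median of 0.08, and neither ligase that removes class II molecules from the surface was called. March1 scored 14971, 11609, 15624 and 14244 at No Dox, 8450 and 10761 at 1wk Dox, then 9509, 8630, 9380 and 10407 at 1wk WD, with no overlap between No Dox and the later time points (-0.56, SE 0.16, adjusted p = 0.066, and -0.57, SE 0.13, adjusted p = 0.0532).

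H2-Ob, the partner chain of H2-Oa in the H2-DM inhibitor, scored 4028, 4139, 4924 and 5048 at No Dox and 2275 and 2339 at 1wk Dox (-0.97, SE 0.17, adjusted p = 0.0103, just under 2-fold), and 3057, 3817, 4387 and 4056 at 1wk WD. H2-Oa scored 1608 and 1496 at 1wk Dox (-0.05, SE 0.30), and the difference between the 2 chains was not tested. Of 9 class I presentation genes none reached 2-fold with the adjusted p at 1wk Dox; Psmb8, an immunoproteasome subunit, passed it at both times (0.67 and then 0.85, the latter with adjusted p = 0.0181), and Tapbp did during treatment (0.78). The 7 calls at 1wk Dox in the endosomal, ligand and interferon-γ lists rested on 2 samples, and without replicate 4 of that group none remained, with adjusted p of 0.082 (Ctsb) to 0.478 (Ctsz). Without replicate 5 of that group, or with only the 2 groups fitted, Ctsb alone was called, and with the replicate block none was (adjusted p of 0.0953 for Ctsb to 0.511 for Pdcd1lg2).

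**Figure D3:**
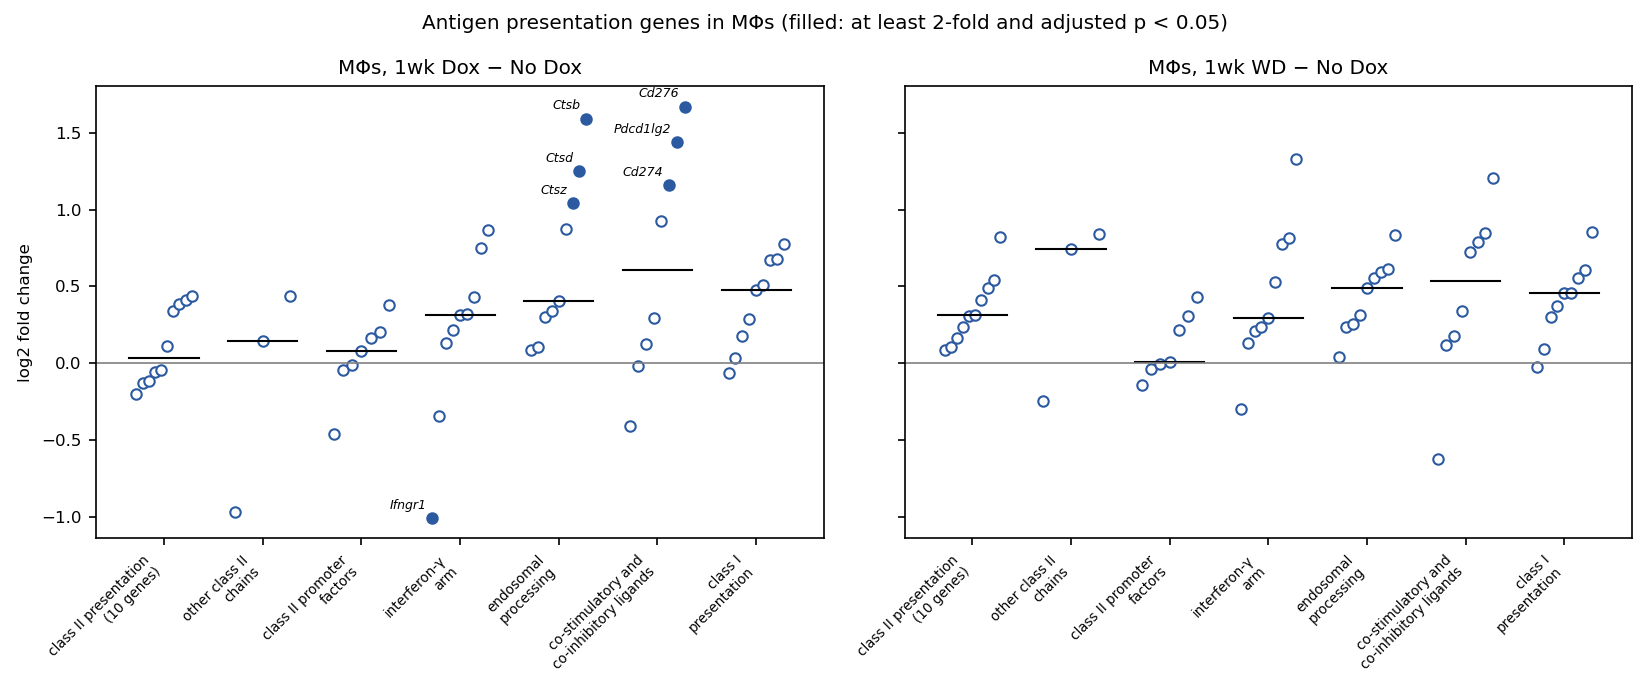
Log2 fold changes in MΦs of the class II presentation genes and of the lists of the same pathway. Each point is a gene, the x axis names the list, the y axis is the log2 fold change of score + 1 against No Dox, black bars are list medians, filled points passed the call at 2-fold and adjusted p under 0.05, and the panels are 1wk Dox and 1wk WD. The 10 class II presentation genes held no called gene in either panel; endosomal processing genes all lay above 0 at 1wk Dox.

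Marker genes of MΦs and of other cell types were also called in MΦs. Of 13 macrophage genes, Fcgr1 (1.16), C1qb (1.42) and C1qc (1.79) were called higher at 1wk Dox, with a summed score of 303729 to 417610 before treatment, 478048 to 583519 in 1wk Dox samples and 446090 to 530607 in 1wk WD samples. Of 10 dendritic cell genes, Ccr7 was called higher (1.85) and Siglech lower (-1.46), while their summed score was 47360 to 60439, 48251 to 49258 and 44193 to 62466. Of 8 T and NK cell genes, of which 7 were tested, Cd4 was called higher at 1wk Dox (1.45) and 1wk WD (1.53). Every other gene of that list had a lower mean MΦ score during treatment than before it, with overlapping ranges. The means fell from 92.25 to 14.5 for Cd3e, 59.75 to 32 for Cd8a and 191.5 to 106.5 for Klrb1c. After withdrawal the means of these other genes were above those before treatment, at 110.5, 67 and 251.5 for the same 3. The rise of Cd4 during treatment was thus not shared by its list. None of 7 B cell genes tested was called. These counts stand beside 2.26 percent of all genes called at 1wk Dox and 0.626 percent at 1wk WD. The Cd4 call at 1wk WD was lost without the trend (adjusted p = 0.069). The 6 marker calls at 1wk Dox were likewise lost without 1wk Dox replicate 4 (adjusted p 0.244 to 0.344) and with the replicate block (0.0953 to 0.213). Their part in the values of the class II genes was not tested.

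In ECs after withdrawal Cd74 passed the adjusted p without reaching 2-fold, and the other 9 genes did not pass it. Cd74 scored 652, 652, 683 and 876 at No Dox and 1402, 1167, 1491, 1309 and 791 at 1wk WD, a fold change of 1.69 (log2 0.76, SE 0.18, adjusted p = 0.0385). All but replicate 5 of the 1wk WD samples lay above the No Dox range. Therefore 0 of 10 genes were called by limma, where 1.76 percent of all genes were, and 3.9 percent passed the adjusted p alone. With each sample left out in turn the adjusted p of Cd74 ran from 0.0116 to 0.117, and it missed 0.05 without replicate 1, 2 or 3 of No Dox or replicate 1, 2, 3 or 4 of 1wk WD.

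H2-Ab1 and Ciita were the other genes with an unadjusted p under 0.05 in ECs. H2-Ab1 scored 382, 569, 599 and 736 at No Dox and 817, 762, 935, 702 and 587 at 1wk WD (0.43, SE 0.20, unadjusted p = 0.0461, limma adjusted p = 0.219). Ciita scored 258, 265, 165 and 340 at No Dox and 503, 268, 508, 341 and 297 at 1wk WD (0.57, SE 0.26, unadjusted p = 0.0466, limma adjusted p = 0.22). Both overlapped between time points. The H2-Aa values, 348, 339, 369 and 385 at No Dox and 501, 416, 343, 205 and 293 at 1wk WD, spread to both sides of the No Dox range (-0.10, SE 0.23), and H2-Eb1 stayed between 61 and 114 (-0.01, SE 0.27).

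Of the peptide-loading genes, H2-DMa and H2-DMb1 were low in ECs and H2-Oa was higher. H2-DMa scored 92, 45, 59 and 71 at No Dox and 45, 55, 26, 1 and 58 at 1wk WD (-1.44, SE 0.85, adjusted p = 0.336), and H2-DMb1 was between 4 and 46 in all 10 EC samples. H2-Oa, at 211 to 279 in No Dox ECs, scored 175, 244, 155, 124 and 202 at 1wk WD (-0.42, SE 0.23, adjusted p = 0.285). Cd86 and Cd83 were at most 61 in any EC sample. For none of the 10 genes did the No Dox and 1wk WD ranges separate, where 10.7 percent of all genes did.

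The single 1wk Dox EC sample allows no test. It lay below the No Dox range for 6 of 10 genes and above it for none, where 26.3 percent of all genes lay below. H2-Aa scored 93 in it, 1.94 lower than the No Dox mean on the log2 scale, and H2-Oa scored 74. These 2 exceeded a 2-fold decrease, as 5.27 percent of all genes did. Cd74 scored 811, inside the No Dox range.

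Of the pathway lists in ECs, Cd276 was called higher at 1wk WD, where 1.76 percent of all genes were called. It scored 87, 141, 84 and 129 at No Dox and 414, 328, 258, 284 and 298 at 1wk WD (1.53, SE 0.23, adjusted p = 0.00567). Cd40, the receptor for the helper T cell ligand, scored 653, 872, 682 and 773 at No Dox and 1122, 991, 1980, 2008 and 1439 at 1wk WD (0.97, adjusted p = 0.0255). Neither gene overlapped, as 10.7 percent of all genes did not. The number of list genes tested in ECs is not given here. The summed score of macrophage genes in ECs was 5686 to 6527 at No Dox and 3930 to 5794 at 1wk WD, with Fcgr1 at 1 in each No Dox sample. None of the 5 macrophage and 4 dendritic cell genes that could be tested was called. Stromal genes had a summed score of 5088 to 11530 at No Dox and 16214 to 69184 at 1wk WD; their part in the value of Cd74 was not tested.

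In the β cell fraction the class II genes varied widely between libraries of a group. Cd74 scored 1104, 609, 19706 and 34650 at No Dox, 8575, 9154, 12341, 29537 and 8717 at 1wk Dox, then 59816, 62815 and 42163 at 1wk WD. The 3 values at 1wk WD lay above every other β cell library. The log2 fold change from No Dox to 1wk WD was 3.55 (SE 1.19, unadjusted p = 0.0121, limma adjusted p = 0.563). Cd83 was the other gene whose 1wk WD values, 4868, 4186 and 1879, all exceeded those at No Dox (2.75, SE 0.85, unadjusted p = 0.00734, limma adjusted p = 0.561). Values that were all higher were found for 3.34 percent of all genes.

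H2-Aa scored 241, 53, 6290 and 9224 at No Dox, 2424, 3209, 2592, 7005 and 2581 at 1wk Dox, then 13299, 14274 and 4533 at 1wk WD. H2-Ab1 scored 411, 124, 6760 and 10469 at No Dox, 2825, 2374, 2593, 9639 and 2667 at 1wk Dox, then 14980, 17191 and 7174 at 1wk WD. In both, No Dox replicates 1 and 2 were lowest of all 12 libraries, replicate 4 stood above the other 1wk Dox samples, and 1wk WD replicate 3 fell inside the No Dox range. H2-Eb1, at 218, 80, 2613 and 4401 at No Dox and 5787, 6093 and 2942 at 1wk WD, followed the same order. Ciita did so as well, at 144, 32, 697 and 1144 at No Dox and 2323, 1634 and 310 at 1wk WD.

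All 10 genes had a higher mean log2 score at 1wk WD than at No Dox, with a median of 2.78 beside 0.06 for all genes, and 6 had an unadjusted p under 0.05. None was called by limma, where 0 percent of all genes were called, and their adjusted p ran from 0.561 to 0.631. With No Dox replicates 1 and 2 left out the median was 0.50, 0 had an unadjusted p under 0.05 and limma called 0, and the values were 0.32 for H2-Aa, 0.54 for H2-Ab1, 0.47 for H2-Eb1, 1.05 for Cd74, 1.08 for Cd83 and -0.56 for H2-DMb1. At 1wk Dox 9 of 10 genes had a higher mean log2 score than at No Dox, with a median of 0.96, 0 unadjusted p under 0.05 and 0 calls by limma, where 0.0122 percent of all genes were called. Without No Dox replicates 1 and 2 each of the 10 had a lower mean log2 score at 1wk Dox, with a median of -1.22, 6 unadjusted p under 0.05 and 0 calls by limma, and log2 fold changes such as -1.23 for H2-Aa and -1.12 for Cd74. These 2 libraries were left out for their low scores of these genes. The downward shift was thus set by the choice, and no decrease is drawn from it. From 1wk Dox to 1wk WD 10 of 10 had a higher mean log2 score, with a median of 1.70, and none was called by limma, where 0 percent of all genes were; Cd83 alone had an unadjusted p under 0.05 (1.92, SE 0.81, limma adjusted p = 0.748).

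The level of the class II genes in β cells was set beside that of other cell types. As a percentage of the mean MΦ score at the same time point, the median of the 10 genes was 0.240 and 0.123 in No Dox β cell replicates 1 and 2, 3.03 and 4.54 in replicates 3 and 4, 1.09 to 3.20 during treatment, and 5.37, 5.68 and 2.42 after withdrawal. The median of 10 dendritic cell genes was 0.634 and 0.761 in No Dox replicates 1 and 2, 23.7 and 14.3 in replicates 3 and 4, 5.74 to 12.5 during treatment, and 29.3, 33.5 and 14.2 after withdrawal. The median of 13 macrophage genes was at most 1.92 in any β cell library. That of 8 B cell genes, whose summed score was at most 702 in β cells, was 15.8, 18.3, 36.6 and 93.9 at No Dox, 40.9 to 82.3 during treatment, and 6.29, 8.10 and 4.33 after withdrawal. That of 8 T and NK cell genes was 10.7, 3.38, 209 and 102 at No Dox, 34.3 to 3371 during treatment, and 1129, 19.3 and 7.21 after withdrawal. The dendritic cell and B cell medians thus differed in order between the time points. The median of 7 monocyte genes was 0.265, 0.162, 2.25 and 3.74 at No Dox, 0.268 to 9.48 during treatment, and 6.94, 3.69 and 2.73 after withdrawal. The class II, dendritic cell and monocyte medians were all lower in No Dox replicates 1 and 2 than in 3 and 4. Replicate 4 had the higher class II median of the latter pair, and replicate 3 the higher dendritic cell median. Of the dendritic cell list, Zbtb46 and Dpp4 are not specific to dendritic cells.

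Xcr1, a receptor of cross-presenting dendritic cells, scored 48, 5, 769 and 1049 in No Dox β cells, 149 to 682 at 1wk Dox, then 1791, 1548 and 216 at 1wk WD, against 19 to 236 in MΦs, so that 7 of 12 β cell libraries exceeded every MΦ library. Itgax, the gene of CD11c, scored 1, 1, 526 and 664 at No Dox and 1536, 1048 and 290 at 1wk WD, and Flt3 scored 1, 1, 394 and 433 at No Dox and 1043, 1227 and 153 at 1wk WD. Emr1, the gene of F4/80, scored 28, 9, 5 and 180 at No Dox and 36, 36 and 518 at 1wk WD, against 26208 to 44210 in MΦs. Other members of both lists ran otherwise. The macrophage genes Csf1r and Mertk scored 331, 186, 588 and 2366, and 16, 39, 556 and 1913, at No Dox and 3040, 2534 and 1687, and 1917, 1984 and 622, at 1wk WD, whereas Dpp4 of the dendritic cell list scored 4326, 3748, 2301 and 1130 and then 1956, 2194 and 4649. As a percentage of the MΦ mean, single macrophage genes reached 21.9 in No Dox replicate 4 and 15.6, 16.1 and 5.06 at 1wk WD, and the lowest dendritic cell gene was at 0.191 and 0.112 in No Dox replicates 3 and 4 and at 0.290, 0.0228 and 0.689 at 1wk WD. T cell transcripts were high in some libraries, with Cd3e at 777 in No Dox replicate 3, 3788 in 1wk Dox replicate 4 and 2164 in 1wk WD replicate 1. Stromal genes also differed between these libraries: their summed score was 945 and 1024 in No Dox replicates 1 and 2, 144638 and 513076 in replicates 3 and 4, 102716 to 482635 at 1wk Dox, then 342974, 315599 and 24575 at 1wk WD. Pdgfrb, a pericyte gene, scored 80, 66, 13692 and 49477 at No Dox. The summed acinar score was 722788, 31279, 12454343 and 9313229 at No Dox, 207 to 20554 at 1wk Dox, then 581792, 103936 and 314 at 1wk WD. The part of other cell types in the class II values of the β cell fraction was not tested.

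Over the 10 β cell libraries other than No Dox replicates 1 and 2, the mean log2 score of H2-Aa, H2-Ab1, H2-Eb1 and Cd74 had a Pearson r of 0.82 and a Spearman rho of 0.73 with the mean log2 score of the dendritic cell genes, and r was 0.75 over the 8 libraries left without the 2 farthest. With the monocyte genes r was 0.73 (rho 0.71), and 0.79 over the libraries left without the 2 farthest. It was 0.67 with the class I genes, 0.54 with the T and NK cell genes, 0.44 with the acinar genes, 0.43 with the macrophage genes and 0.34 with the stromal genes. With the β cell genes it was -0.47, and with the endothelial genes -0.44 (-0.82 without the 2 farthest). These are descriptions of libraries that share their normalization and, in part, their group.

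**Figure D4:**
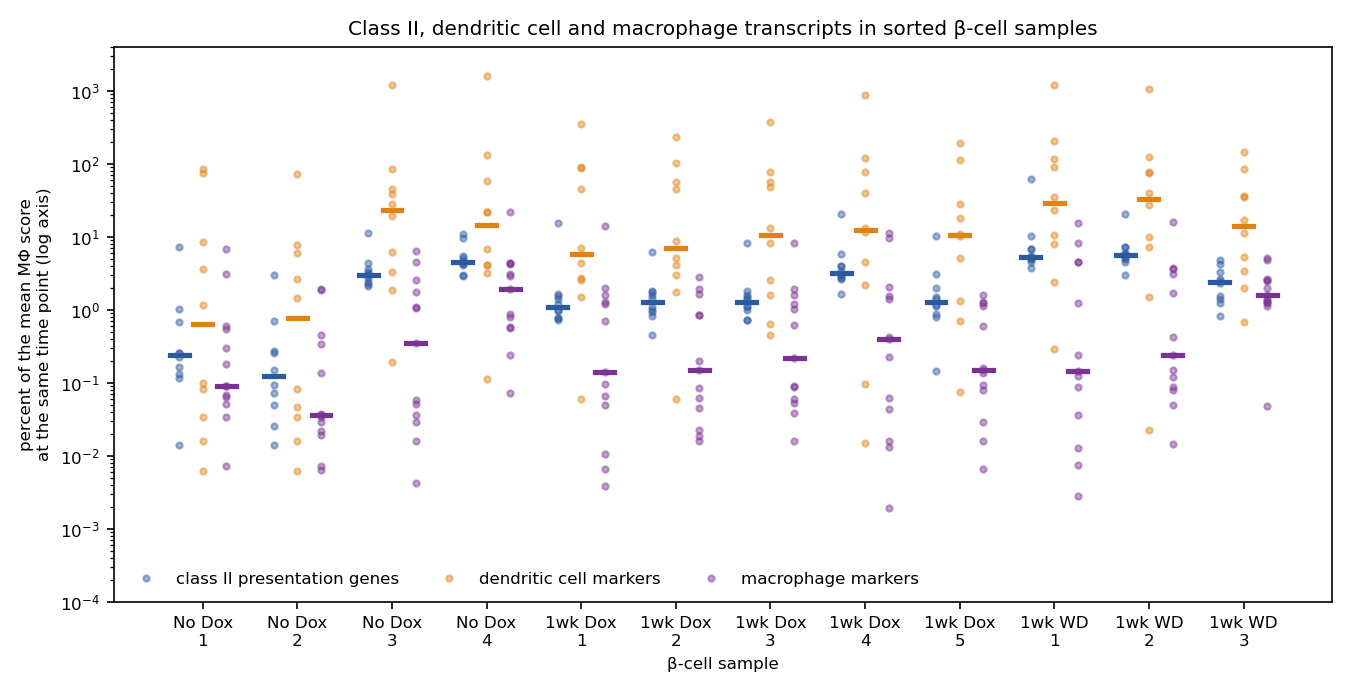
Class II presentation genes, dendritic cell genes and macrophage genes in the 12 β cell libraries. Each point is a gene, the y axis is its score as a percent of the mean MΦ score at the same time point on a log10 scale, the x axis gives the libraries by time point and replicate, colours are lists and bars their medians. No Dox replicates 1 and 2 had the lowest medians of the class II and dendritic cell genes, at 0.123 to 0.761 percent, and the medians of the macrophage genes were at most 1.92 percent.

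Whether the change after withdrawal differed between cell types was tested by interaction contrasts. For ECs minus β cells at 1wk WD the median over the 10 genes was -2.75, 9 had an unadjusted p under 0.05, and 0 were called by limma (adjusted p 0.201 to 0.472), where 0.383 percent of all genes were called. The count of class II genes called was 7 without No Dox β cell replicate 4. It was 1 without 1wk WD β cell replicate 3, where 1.81 percent of all genes were called. For MΦs minus β cells at 1wk WD the median was -2.45, 5 had an unadjusted p under 0.05 and 0 were called by limma, where 0.0413 percent of all genes were, and 3 were called without No Dox β cell replicate 4. The shares of all genes called without that replicate are not given here, so these 2 counts have no background beside them. Without No Dox β cell replicates 1 and 2 these medians were -0.32 for ECs minus β cells, with 0 unadjusted p under 0.05, and -0.19 for MΦs minus β cells, with 1, and limma called 0 in either. Cd74 had the largest estimate for MΦs minus β cells, -3.46 (SE 1.10, limma adjusted p = 0.221), and -0.96 (SE 0.47, limma adjusted p = 0.408) without both. For MΦs minus ECs at 1wk WD and MΦs minus β cells at 1wk Dox, where 0.265 and 0.0354 percent of all genes were called, 0 of 10 were called by limma and 0 had an unadjusted p under 0.05. For MΦs minus β cells at 1wk Dox the median went from -0.74 to 1.28 without both libraries, with 4 unadjusted p under 0.05 and 0 calls by limma. This shift too was set by leaving out libraries chosen for low scores of these genes. Comparisons that share the No Dox samples of a cell type are not independent of each other.

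Within MΦs and ECs the class II genes did not all vary together. Over the 10 MΦ samples H2-Eb1 and H2-DMb1 were the most alike pair (r = 0.91) and Cd74 and Ciita the least (r = -0.77), whereas over the 10 EC samples Cd74 and Ciita had an r of 0.79, H2-Ab1 and Cd74 of 0.75 and H2-Aa and H2-Oa of 0.85. These samples share time points and a normalization. Of genes outside the 10, those whose log2 scores were among the most like the mean of H2-Aa, H2-Ab1, H2-Eb1 and Cd74 over the 10 MΦ samples were Gpx1 (r = 0.97), Lilrb3 (0.97), Crip1 (0.96) and Zyx (0.96), among 15004 genes. Without No Dox replicate 3 their r was 0.98, 0.92, 0.90 and 0.88. Over the 10 EC samples the most alike were Gbp2 (r = 0.93), Igtp (0.91), Fam13b (0.91), Zfp516 (0.88) and Pla2g16 (0.87), among 14271 genes. In both cell types these r are high by selection, being the highest of many genes over 10 samples.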

How the data were processed

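Sorted cells were lysed, RNA was amplified with the NuGEN Ovation kit and 50 bp paired reads were aligned by the authors with TopHat 2.0 to mm9; the annotation version and the counting of strands are not given in the sources used here. The deposited score of a gene is a TMM-normalized value given in whole numbers, so reads cannot be recovered and the depth per sample is unknown. No counting interval is given. Scores of the 32 samples summed to 23465985 to 53441769. A further 6 value columns of the table belong to no sample here and were not used.

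Samples were grouped by cell type and treatment from their labels. Scores were tested as log2(score + 1) with limma 3.58.1 in R 4.3.3 (eBayes with trend, two-sided) on genes whose mean reached 20 in some fitted group, with Benjamini-Hochberg adjustment over all genes tested, and called at a 2-fold change and an adjusted p under 0.05. A model held all time points of MΦs or of β cells, No Dox and 1wk WD of ECs, the 3 cell types of a time point, or all groups of 2 or more samples for interactions. The authors' z-score test was not repeated. Scripts were tested on simulated data. Exon lengths came from GENCODE M1 (mm9), promoters from RefSeq (GRCm38.p6). Named genes were the 10 class II genes, the listed pathway and cell type genes, and the 5 genes most like H2-Aa, H2-Ab1, H2-Eb1 and Cd74 (some results under this rule are not reported here); other genes named among the lists were picked by their calls. The genes and lists were chosen with earlier results of these data known. Alternatives covered the pseudocount, filter, scaling, trend, replicate block and left-out libraries. Ciita stands on 2 rows, of which the one above 1 was used.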

Additional observations from a re-analysis of the deposited data

Results flagged for a closer look

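Over the 10 genes, in 6 of 60 groups of 4 or 5 samples 1 sample stood farther from the others than the 95% critical value of Dixon's test, which chance gives in about 1 of 20 groups. In 1wk Dox β cells, replicate 4 had the highest H2-Aa (7005), H2-Ab1 (9639) and H2-Eb1 (3745) of its group, and the same library held the highest Cd3e score of the β cells, 3788. In No Dox ECs, replicate 4 had a Cd74 score of 876, above the other 3. In 1wk WD ECs, replicate 4 had an H2-DMa score of 1, the lowest value a score takes. In No Dox MΦs, replicate 3 had an H2-DMa score of 2790, below the other 3.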

How the results depend on the processing

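Counts of called genes kept within 1.5 times of their value in 191 of 194 comparisons with other settings and in 159 of 164 with a library left out. In each contrast but ECs against β cells the reported count was 0 or 10 of 10. A count at such a bound has little room to move, so the tally does not measure how stable the values are. The exceptions among other settings were the ECs after withdrawal, with 1 gene (Cd74) by adjusted p alone, and ECs against β cells at No Dox, with 5 calls under array weights and 9 without β cell replicates 1 and 2. Those with a library left out were ECs against β cells at No Dox (2 to 7 calls) and, at 1wk WD, MΦs minus β cells (0 to 3) and ECs minus β cells (0 to 7). The count by adjusted p alone is not in the second tally, and Cd74 was lost from it in 7 of 9 fits with a library left out. The number of all genes called, the background of these counts, moved more over the other settings: from 340 to between 3 and 436 for MΦs at 1wk Dox, from 94 to between 11 and 118 at 1wk WD, from 13 to between 0 and 79 between these, from 250 to between 76 and 283 for ECs, from 2 to between 0 and 6 for β cells at 1wk Dox, and in the 4 interaction contrasts from 45 to between 8 and 303, 7 to between 0 and 30, 65 to between 15 and 102, and 6 to between 0 and 19. Without No Dox β cell replicates 1 and 2, of all genes 80 were called in 1wk Dox and 14 in 1wk WD β cells, none of them among the 10.

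Directions turned for small and for large changes. Under quantile normalization the 1wk Dox change in MΦs was 0.35 for H2-Aa and 0.78 for H2-Ab1, that from 1wk Dox to 1wk WD was 0 for H2-Ab1 and Cd74 and -0.10 for H2-Eb1, and Ciita in 1wk Dox β cells was -0.025. Without No Dox MΦ replicates 2 and 3, H2-DMa at 1wk Dox was -0.10 and Cd74 at 1wk WD -0.064. Without No Dox β cell replicates 1 and 2 the 1wk Dox change was -1.23 for H2-Aa, -1.31 for H2-Ab1, -1.21 for H2-Eb1, -1.12 for Cd74, -2.50 for H2-DMb1, -0.089 for H2-Oa, -1.42 for Ciita, -0.86 for Cd86 and -0.83 for Cd83, the 1wk WD change of H2-DMb1 was -0.56, and H2-DMb1 and Ciita in ECs against β cells were -3.58 and -1.84. With a pseudocount of 20, H2-DMb1 in 1wk Dox β cells was -0.11, and H2-DMb1 and Ciita in ECs against β cells were -0.88 and -0.11; with median-of-ratios scaling these 2 were -0.0079 and -0.020. The cause was not tested.

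With single libraries left out, 1wk Dox values in MΦs ran from -0.47 to 0.0023 (H2-Aa), -0.16 to 0.62 (H2-DMa), -0.19 to 0.086 (H2-Oa) and -0.24 to 0.015 (Ciita), 1wk WD values from -0.077 to 0.19 (Cd74) and -0.0091 to 0.24 (Ciita), and H2-DMb1 from 1wk Dox to 1wk WD from -0.10 to 0.25. In ECs they ran from -0.24 to 0.080 (H2-Aa), -0.10 to 0.13 (H2-Eb1) and -0.020 to 0.55 (Cd86). In 1wk Dox β cells they ran from -0.61 to 0.64 (H2-DMa), -0.11 to 2.35 (H2-DMb1) and -0.54 to 1.16 (Ciita). In ECs against β cells they ran from -1.19 to 1.27 (H2-DMb1) and -0.96 to 0.74 (Ciita) at No Dox and from -2.08 to 0.014 (H2-Oa) at 1wk WD.

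Same-numbered samples did not deviate together throughout (r from -0.48 to 0.38), so the numbers were not taken as pairs. The labels do not say whether same-numbered samples of different cell types came from the same islets, and for MΦs against ECs at 1wk WD 3 of 4 samples correlated best with their own number. With the replicate block the calls over all genes went from 340 to 3 for MΦs at 1wk Dox, from 94 to 43 at 1wk WD and from 13 to 0 between these, Cd83 at 1wk Dox was 0.044, Cd86 from 1wk Dox to 1wk WD -0.17 and H2-Eb1 in ECs 0.0082; of the class II counts it moved 1, ECs against β cells at 1wk WD, from 9 to 8. Depth was not known, and scores of ECs near 1 limit what can be seen there.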
